A study of Cricetiscus sungorus with 216 samples.

Results

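The genes described here encode the receptors for GABA and glutamate, the transmitters that carry most fast inhibition and fast excitation in the hypothalamus. They were all gene symbols of the mediobasal hypothalamus (MBH), dorsomedial hypothalamus (DMH) and paraventricular nucleus (PVN) tables that begin with the stems of the GABA-A subunits alpha, beta, gamma, delta, epsilon and theta (Gabra, Gabrb, Gabrg, Gabrd, Gabre, Gabrq), the GABA-B subunits (Gabbr), or the AMPA (Gria), NMDA (Grin), kainate (Grik) and metabotropic glutamate (Grm) receptors. The choice used symbols only, and no measured value. It found 41 of 20156 symbols in the MBH, 41 of 21821 in the DMH and 34 of 18960 in the PVN, which made 42 different symbols of 30171, of which 33 were measured in all 3 tissues. Grin1os, an antisense record, and Gabra4-2, a second record of Gabra4 that was measured only in the PVN, matched the stems but were left out of the class sums, which therefore held 40 genes in the MBH and DMH and 33 in the PVN.

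The libraries came from 54 male Djungarian hamsters, also called Siberian hamsters, which shut down reproduction and lose mass in short days and later recover without any change of light. Hamsters were kept in a long photoperiod (LP, 16 h light and 8 h dark, 6 hamsters) or moved to a short photoperiod (SP, 8 h light and 16 h dark) for 4, 8, 12, 16, 20, 24, 28 or 32 weeks (6 hamsters each). Each tissue was a punch from brain sections of a hamster, and a hamster carries the same number in every tissue, so each replicate was a separate animal. SP weeks were grouped as early (4 and 8 weeks, 12 hamsters), mid (12, 16 and 20 weeks, 18 hamsters) and late (24, 28 and 32 weeks, 18 hamsters), after the phases in which the hamsters change into, hold and leave the winter state. The labels give LP as 1 group with no week, so age cannot be told apart from weeks in SP.

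GABA-A receptors are chloride channels built of alpha and beta subunits with a gamma, delta, epsilon or theta subunit, and the GABA-B receptor is a G protein-coupled pair of Gabbr1, which binds GABA, and Gabbr2, which signals. AMPA, NMDA and kainate receptors are cation channels that glutamate opens, whereas the metabotropic receptors act through G proteins, with Grm5 mostly raising excitability and Grm2, Grm3, Grm4, Grm6, Grm7 and Grm8 mostly damping transmitter release. In the hypothalamus these receptors set the firing of the neurons that govern feeding, body temperature and reproduction.

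Depth limited what could be seen of these genes. Libraries held between 4532 and 7174575 counts in the MBH (median 952862), between 87441 and 5884447 in the DMH (median 932104) and between 159 and 998247 in the PVN (median 168904), all without Gm32262, a single symbol that took 36.4% of all MBH counts and 39.95% of all DMH counts. Symbols read per library had a median of 12033 in the MBH, 8073 in the DMH and 9936 in the PVN, and fewer than 5000 symbols were read in 2, 20 and 3 libraries of these tissues. One PVN library of LP (replicate 1) held only 159 counts and none of a receptor gene. Levels are given as CPM, a count divided by the library total and scaled to 1000000. A count of 0 allows a level of up to 3 counts, which in the median library is 3.15 CPM in the MBH, 3.23 CPM in the DMH and 17.8 CPM in the PVN, for counting error only. Of the neuropeptides of the arcuate nucleus, Agrp was read in 53, Npy in 52, Pomc in 54 and Tac2 in 51 of the 54 MBH libraries, but Kiss1 in 28 and Ghrh in 11. Of the genes listed for the DMH and its neighbours, Npvf was read in 9, Grp in 17 and Ppp1r17 in 15 of 54 DMH libraries, and Hcrt in 26 and Pmch in 44, both peptides of the neighbouring lateral hypothalamus. In the PVN Trh was read in 51 libraries and Sim1 in 14, but Pmch also in 43 (median 65.1 CPM), and Avp, Oxt and Crh were not analysed here for the PVN. The PVN table was made with other isoform identifiers than the MBH and DMH tables, so levels were not compared between the PVN and the other tissues.

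By the number read per library, the receptor genes were read best in the MBH. Their counts summed to 77213 over the 54 MBH libraries, 29576 over the DMH and 7697 over the PVN. These sums add isoform rows, which numbered 35 for Gria2 in the MBH and DMH but 3 in the PVN. The sums, and the limit of 54 counts below, are therefore not comparable between the PVN and the other tissues. The median MBH library read 32 of the 41 genes, the median DMH library 17 of 41 and the median PVN library 20.5 of 34. In the MBH 33 genes were read in at least 27 libraries, against 15 in the DMH and 20 in the PVN, and none was read in every library of a tissue. At least 54 counts in all, a mean of 1 per library, were reached by 36 genes in the MBH, 35 in the DMH and 22 in the PVN. The others (5, 6 and 12) were tested as well but are given here by counts and ranges only. At the low end, Grin1os and Grm6 were listed at 0 in every LP and early SP library of the MBH and DMH, and Gabre was read in 1 DMH library.

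**Figure D1:**
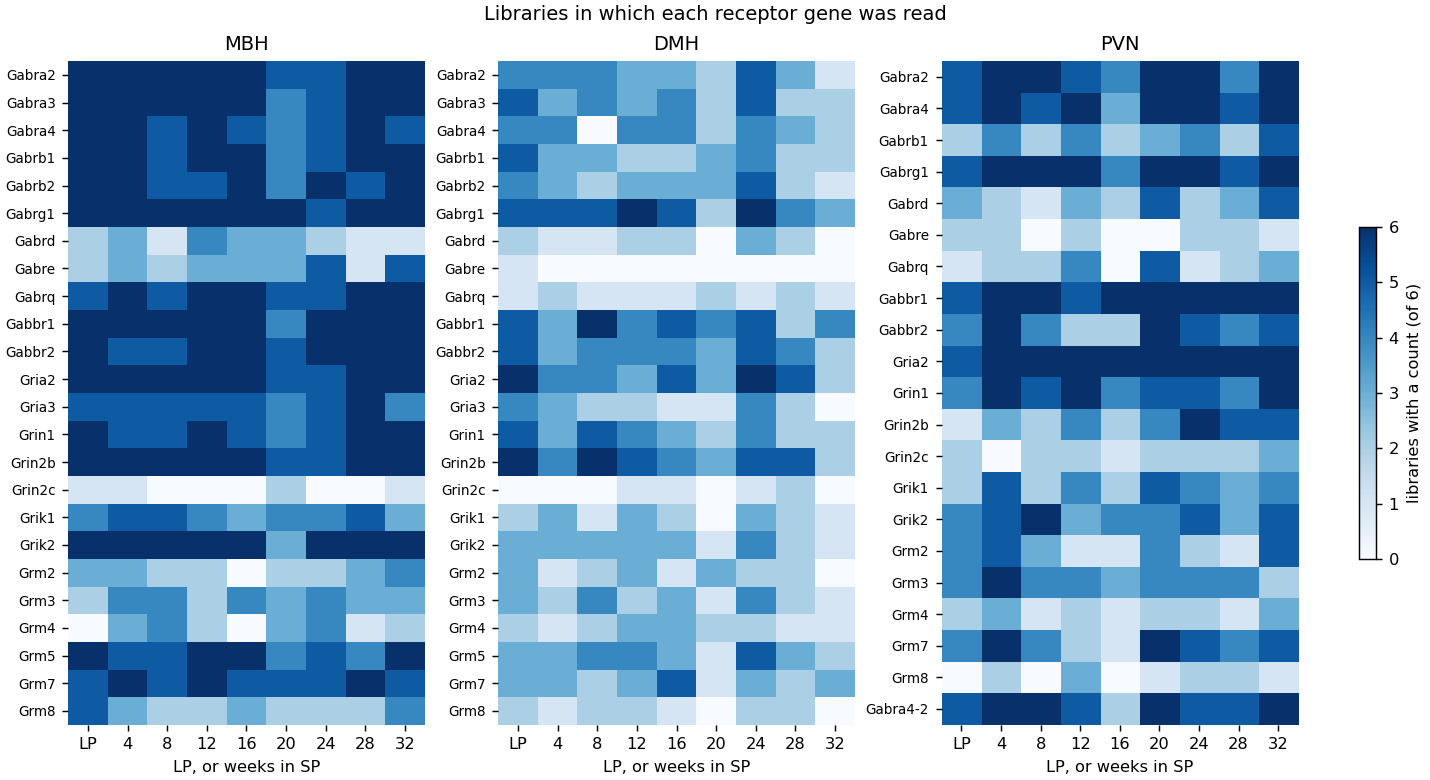
Number of libraries, of the 6 in each group, with at least 1 count of a receptor gene, for LP and each SP week (columns) in the MBH, DMH and PVN (panels), with the receptor genes named in the text in rows. The MBH panel is filled for most genes in most groups, whereas many DMH and PVN cells hold few libraries, as for DMH Gria3 at 32 weeks, which was read in 0 of 6.

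Summed over all receptor genes, the level overlapped between LP and SP in each tissue. In the MBH the LP libraries had a lowest value of 790 CPM, a median of 1420 and a highest of 2496. Their mean was 1484 ± 562 CPM (SD, n = 6), against 1144 ± 578 in early SP (n = 12), 1149 ± 465 in mid SP (n = 18) and 1216 ± 522 in late SP (n = 18). All 3 sets of SP weeks had means under LP by less than 1 SD. In the DMH the LP libraries ran from 141 CPM over a median of 432 to 1284, with a mean of 530 ± 445 CPM. The DMH mean was 205 ± 212 CPM in early SP, 252 ± 385 in mid SP and 348 ± 488 in late SP. The medians were 432, 166, 120 and 104 CPM, under the means in each set, and single DMH libraries stood far above the rest of their week. Without the DMH libraries that read fewer than 5000 symbols the medians were 649, 271, 190 and 438 CPM, so that late SP no longer lay below the earlier weeks. In the PVN the LP mean was 458 ± 284 CPM, which includes the library of 159 counts at 0, and the SP means were 593 ± 241, 578 ± 160 and 575 ± 202 CPM in early, mid and late SP. Fewer neurons in a punch and less receptor RNA per neuron cannot be told apart in these bulk samples.

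**Figure D2:**
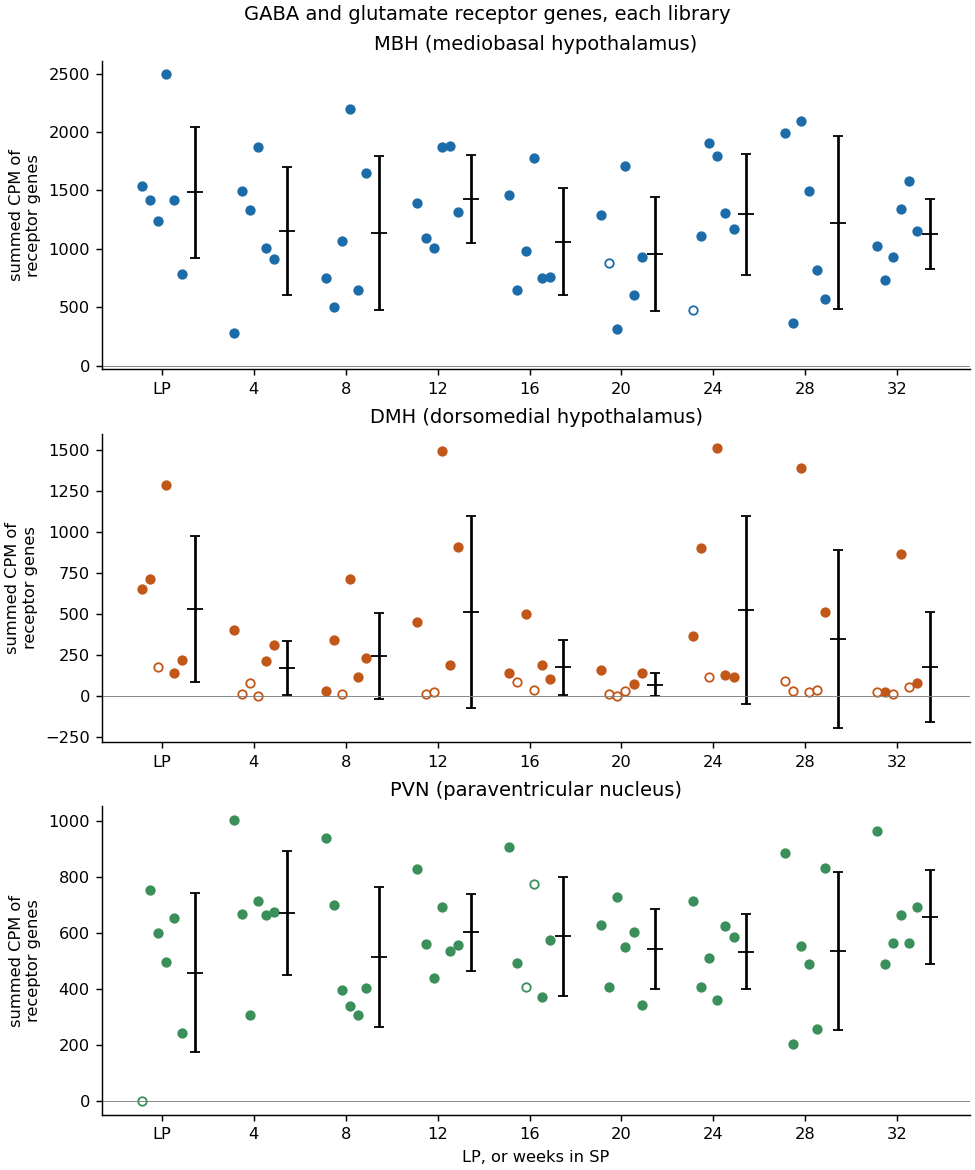
Summed level of the receptor genes (CPM, y axis) in each library of LP and of each SP week (x axis) in the MBH, DMH and PVN. Points are hamsters, open points are libraries with fewer than 5000 symbols read, and bars are the mean ± SD of 6 hamsters. MBH means by week lay between 956 and 1484 CPM, and DMH means between 68.9 and 530 CPM with wide spread within a week.

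With isoform rows summed, AMPA receptor genes made up the largest sum of CPM among the classes in the MBH. The AMPA sum was 617 ± 283 CPM in LP, 513 ± 278 in early SP, 450 ± 227 in mid SP and 472 ± 251 in late SP. GABA-A alpha genes summed to 237 ± 142 CPM in LP and to 173, 172 and 184 CPM in early, mid and late SP. NMDA genes held 155 ± 55.4 CPM in LP and 120, 142 and 151 CPM in SP. In early and mid SP the class with the lowest mean relative to LP was GABA-B, at 116 ± 58.6 CPM in LP, 59.8 ± 26.5 in early SP, 71.9 ± 41.5 in mid SP and 89.2 ± 39 in late SP. Kainate genes followed, at 116 ± 27 CPM in LP and 81.2, 77.7 and 106 CPM in SP. In these 2 classes the mean was lowest in early or mid SP and closer to LP in late SP. Metabotropic glutamate genes lay at 61.3 CPM in LP and between 45.4 and 60.5 CPM in SP, and the delta, epsilon and theta genes at 12.9 CPM in LP and between 12.9 and 15.8 CPM in SP. These sums have no gene length in them, so the order of the classes is one of counts and not of transcripts. The order also depends on how many isoform rows were summed. In the MBH Gria2 had 35 rows, the most counted with 1078 of 20174 counts, and Gabra2 had 2, the most counted with 1232 of 2350.

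Very few receptor genes passed the test for a change with photoperiod in the MBH. With the quasi-likelihood test of edgeR at an adjusted p (false discovery rate, FDR) below 0.1, 1 of 41 was called over the 9 groups, against 0.437% of all symbols tested. In early SP against LP 0 were called (0.0397% of symbols), in mid SP against LP 0 (0.203%), in late SP against LP 0 (0.169%) and in late SP against mid SP 0 (0.00992%). At an unadjusted p under 0.05 there were 2, 2, 1, 2 and 1 receptor genes in these comparisons, where 4.40% to 8.04% of all symbols were. DESeq2 called 0 receptor genes in all of them. The call was Grin2c, an NMDA subunit best known from the cerebellum (adjusted p = 0.0703). It rested on 17 counts in 5 libraries, at 0.569 CPM in LP replicate 2, 0.203 CPM at 4 weeks, 1.05 and 3.8 CPM in replicates 4 and 6 of 20 weeks and 0.580 CPM at 32 weeks. Every other MBH library was at 0, and at 20 weeks 4 of the 6 libraries were. The 17 counts were summed over 13 isoform rows, of which the most counted held 3, so a read may be counted more than once.

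The MBH fold changes lay on both sides of 0. Of the 35 genes with at least 54 counts and no group at 0, 19 were higher and 16 lower in early SP, 18 higher and 17 lower in mid SP, and 11 higher and 24 lower in late SP than in LP. Their median log2 fold changes were 0.10, 0.02 and -0.07, beside -0.03, -0.04 and -0.01 for all symbols of the same depth. The median half-width of the 95% interval was 1.08, 1.01 and 1.00 on the log2 scale. Changes of less than about that size in a typical receptor gene could therefore not be told from 0. These intervals are not adjusted for the number of symbols, so a call at the FDR needed a larger change. The width holds the spread between libraries as well as depth.

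Gabbr1, the GABA-binding subunit of the GABA-B receptor, was among the abundant MBH genes with a lower mean in each set of SP weeks than in LP. Its LP libraries ran from 49.8 CPM over a median of 102 to 195. Those of early SP ran from 9.19 CPM over 49.3 to 90.9, so 3 of the LP libraries lay above all 12 early SP libraries and the sets overlapped below that. The mean was 109 ± 56.1 CPM in LP, 52.7 ± 23.7 in early SP, 64.7 ± 39.5 in mid SP and 80.0 ± 39 in late SP. Mean CPM differed between early SP and LP by the exact permutation test (2-sided p = 0.0123) and missed in mid SP (exact permutation p = 0.0515). In the fit across all symbols the log2 fold change was -0.60 (SE 0.34, 95% interval -1.28 to 0.07) in early SP, with an edgeR adjusted p of 0.926. It was -0.43 (-1.06 to 0.21) in mid SP and -0.21 (-0.85 to 0.42) in late SP, both with an adjusted p of 1. By week the Gabbr1 mean started from 52.6 and 52.8 CPM in the 4 and 8 week groups, reached 88.6 CPM in the 12 week group and 40.8 CPM in the 20 week group, and ended on 83.7 CPM after 32 weeks.

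Grm8, a presynaptic metabotropic receptor that damps glutamate release, was read in 5 of 6 LP libraries of the MBH but in 5 of 12 of early, 7 of 18 of mid and 8 of 18 of late SP. The LP values were 1.98, 5.12, 30.9, 0, 11.2 and 8.34 CPM in replicates 1 to 6. The highest value was 11.8 CPM in early, 7.47 in mid and 13.4 in late SP, with a median of 0 in each. The log2 fold change was -2.42 (SE 0.97, 95% interval -4.37 to -0.47) in early SP, -2.10 (-3.83 to -0.38) in mid SP and -1.86 (-3.55 to -0.17) in late SP, with edgeR adjusted p-values of 0.774, 0.637 and 0.897. None of these passed. Without replicate 3 of every group, which removes the highest LP library, the mid SP and late SP values were -1.16 and -1.02.

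Among the glutamate-gated channels of the MBH, Grik2, the most counted kainate subunit, had a mean of 68.5 ± 42.1 CPM in LP, 36.6 in early SP, 33.1 in mid SP and 49.6 in late SP. Its log2 fold change in mid SP was -0.78 (95% interval -1.78 to 0.22, edgeR adjusted p = 0.917). Gria2, the AMPA subunit that keeps the channel closed to calcium, had 430 ± 258 CPM in LP and 333, 290 and 313 CPM in early, mid and late SP. By week it ran from 210 CPM at 20 weeks to 438 CPM at 12 weeks, and its log2 fold change in mid SP was -0.27 (-1.03 to 0.49). Grin1, the subunit that every NMDA receptor needs, was at 67.3 CPM in LP and between 55.6 and 62.5 CPM in SP. Grin2b, a second NMDA subunit and the most counted one, was at 75.1 CPM in LP and between 56.7 and 74.7 CPM in SP. Grm5, the most counted metabotropic gene, was at 21.3 CPM in LP and between 15.6 and 24.4 CPM in SP. Grm4, another presynaptic receptor, had no count in the 6 LP libraries, whereas 7 of 12, 5 of 18 and 7 of 18 libraries of early, mid and late SP held it, with adjusted p-values of 0.830 in early and 0.623 in late SP. No fold is given for it because LP was at 0.

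The GABA-A subunits of the MBH showed no called change. Gabra3, the alpha subunit with the most counts, was at 62.1 CPM in LP and between 44.4 and 50.8 CPM in SP. Gabrb2, a beta subunit, was at 37.6 CPM in LP and at 31.4, 21.4 and 31.8 CPM in early, mid and late SP. The subunits that form receptors outside synapses were low. Gabrd was at 1.58 CPM in LP, 0.972 in early, 1.74 in mid and 0.489 in late SP, read in 10 of 18 mid but 4 of 18 late SP libraries, with a log2 fold change from mid to late SP of -1.55 (-2.99 to -0.12, edgeR adjusted p = 1). Gabra4, its usual alpha partner, was at 27.5 CPM in mid SP and 19.1 in late SP, a log2 fold change of -0.62 (-1.35 to 0.10, edgeR adjusted p = 1). Gabrq, a subunit frequent in the hypothalamus, was at 10.6 CPM in LP and between 11.2 and 12.6 CPM in SP, and Gabre, often found with it, was at 0.727 CPM in LP and between 0.775 and 1.53 CPM in SP. Gabrg1, which is rich in glia, had a mid SP mean of 50.7 but a median of 13 CPM, because the library of 4532 counts at 20 weeks was at 662 CPM.

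Some marker sums of other cells were mostly lower in SP than in LP in the MBH, which was not tested. The sum of 5 pituitary markers (Prl, Gh, Cga, Lhb, Tshb), all 5 measured, ran from 927 to 3404 CPM in LP but from 23.4 to 426 CPM in early, 2.70 to 511 in mid and 21.5 to 1271 in late SP. Cga was read in 53 of the 54 MBH libraries, Tshb in 34, and Prl and Gh had a median of 0. The sum of 6 tanycyte and ependyma markers, all measured, had a mean of 425 CPM in LP and 199, 214 and 236 CPM in early, mid and late SP. Of these 6, Col25a1, Vim and Crym had medians of 104, 96.3 and 21.8 CPM over all MBH libraries. Ccdc153, Rax and Foxj1 had medians of 2.44, 0.788 and 0 CPM. The part of the pituitary, tanycyte and ependyma markers in the values of Gabbr1 and Grm8 was not tested.

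In the DMH more receptor genes lay lower than higher in SP against LP, but none passed the test in a set of SP weeks. Of 41 receptor genes, 2 were called over the 9 groups, beside 4.38% of all symbols. In early, mid and late SP against LP 0 were called, beside 0.532%, 0.862% and 0.275% of symbols, and in late against mid SP 0 beside 0%. At an unadjusted p under 0.05 there were 6 receptor genes over the 9 groups, 3 in early SP (all lower), 7 in mid SP (all lower), 5 in late SP (4 lower) and 3 between late and mid SP (2 higher), where 14.2%, 8.10%, 9.74%, 8.73% and 5.18% of symbols were. DESeq2 called 0 receptor genes in each, with 2, 1, 1, 1 and 0 at an unadjusted p under 0.05. The smallest adjusted p of edgeR in a set of weeks against LP was 0.110.

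Of the DMH genes with at least 54 counts and no group at 0, 8 were higher and 24 lower in early SP, 5 higher and 25 lower in mid SP, and 6 higher and 21 lower in late SP. Their median log2 fold changes were -0.83, -0.62 and -0.46, where those of all symbols of the same depth were -0.25, -0.35 and -0.30. From mid to late SP 18 of 25 were higher, with a median of 0.18. The median half-width of a 95% interval was 1.81, 1.65 and 1.66 on the log2 scale against LP, wider than in the MBH. Over all 41 genes the medians were -0.87, -0.62 and -0.74, and with weeks of a set pooled, which keeps a week at 0 from setting the value, they were -0.76, -0.53 and -0.33. With genes at 0 in a whole set placed at a bound of 3 counts, the pooled medians were -0.77, -0.55 and -0.34. Without the 20 libraries under 5000 symbols they were -0.74, -0.51 and -0.53, and the medians of all symbols were -0.04, -0.15 and -0.13.

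**Figure D3:**
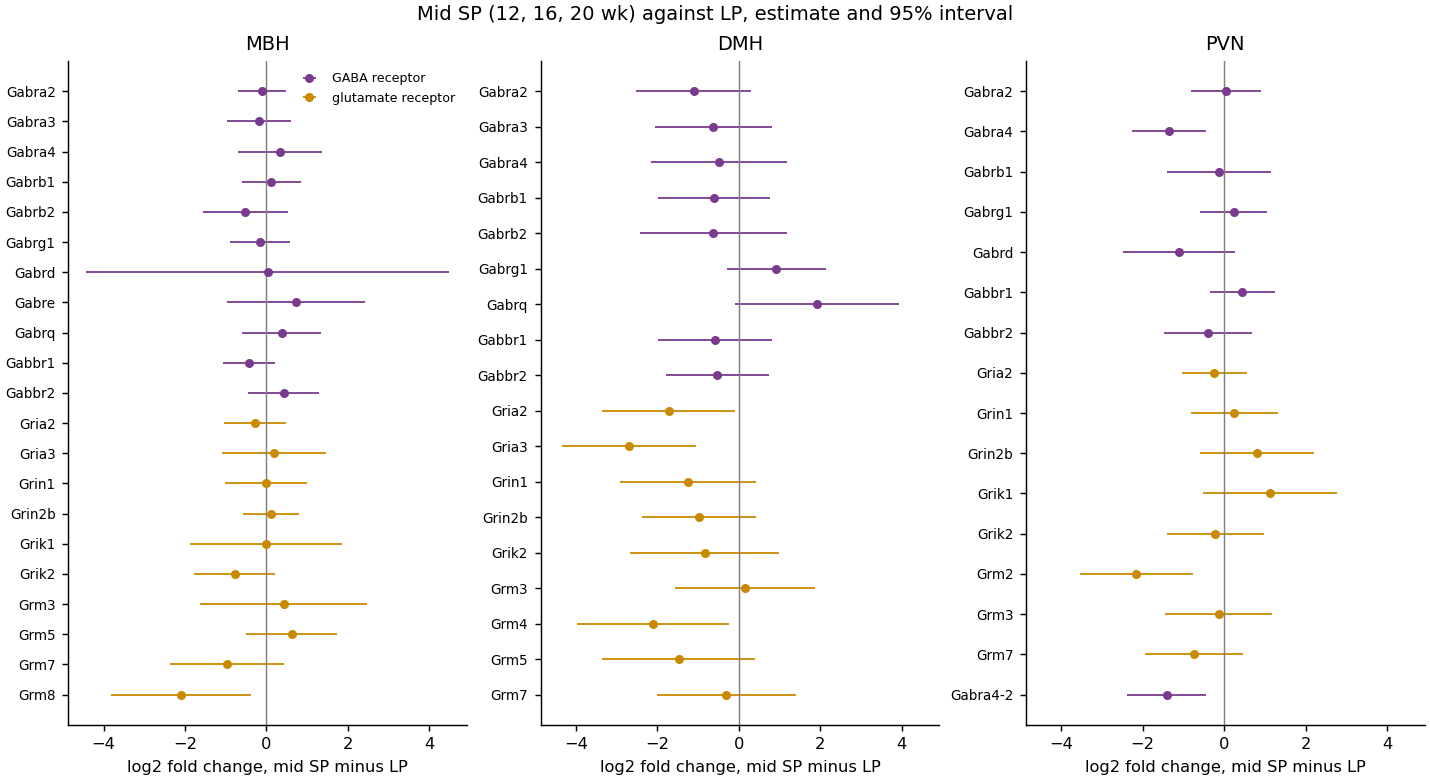
Log2 fold change of mid SP against LP (x axis) for the receptor genes named in the text with at least 54 counts and no group at 0, in the MBH, DMH and PVN, with bars for the 95% interval of the edgeR fit. Of the genes drawn, 15 of 18 lie left of 0 in the DMH, 11 of 21 in the MBH and 10 of 16 in the PVN, and the intervals of 15, 20 and 13 of them cross 0.

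Gria3, an AMPA subunit, had the smallest adjusted p of the DMH genes in mid SP against LP. Its LP values were 34.1, 30.6, 0, 25.9, 6.43 and 0 CPM in replicates 1 to 6. It was read in 5 of 12 libraries of early SP (highest 12.2 CPM), 4 of 18 of mid SP (highest 17.5) and 6 of 18 of late SP (highest 23.2), with a median of 0 in each. So 3 LP libraries lay above every SP library and 2 were at 0 like most of them. The log2 fold change was -1.96 (SE 0.91, 95% interval -3.78 to -0.14, edgeR adjusted p = 0.504) in early SP and -2.70 (SE 0.82, -4.34 to -1.06, adjusted p = 0.128) in mid SP. In late SP, where the 32-week group was at 0, pooling the weeks gave -2.11 with an adjusted p of 0.375. Mean CPM differed in each set by the 2-sided exact permutation test (p = 0.0264, 0.0107 and 0.0276). With only the isoform of most counts kept, Gria3 passed in early SP (adjusted p = 0.0843) and mid SP (adjusted p = 0.0659). Without replicate 3 of every group it also passed in mid SP (adjusted p = 0.0712), whereas without the libraries under 5000 symbols its adjusted p was 0.674.

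Gria2 lay lower in SP in the DMH as well. All 6 LP libraries read it, from 3.21 CPM over a median of 101 to 318, beside 8 of 12, 11 of 18 and 13 of 18 libraries of early, mid and late SP, with medians of 29.6, 20.4 and 24.3 CPM. The highest SP library reached 228 CPM, so the sets overlapped. The log2 fold changes were -1.78 (95% interval -3.58 to 0.03), -1.72 (-3.37 to -0.08) and -1.70 (-3.36 to -0.04), with edgeR adjusted p-values of 0.635, 0.475 and 0.547. From an LP mean of 116 CPM, the weekly means took no steady course, with 49.4 and 24.3 CPM in the early weeks, 72.6, 38.8 and 18.8 CPM in the mid weeks and 89.7, 57.5 and 17.6 CPM in the late weeks. Grin1 was at 38.7 CPM in LP and 13.6, 16.0 and 23.8 CPM in SP, with a log2 fold change of -1.25 (-2.91 to 0.41) in mid SP. Grin2b was at 47 CPM in LP and 10.8, 18.7 and 19 CPM in SP. Grik1, a kainate subunit, had counts in 2 of 6 LP libraries and in none of the 20-week group, and with weeks pooled its log2 fold change in mid SP was -1.20 (adjusted p = 0.786). Grik2, the most counted kainate gene, was at 5.31 CPM in LP and 4.48, 6.11 and 10.4 CPM in SP, and Grm5 was at 8.46 CPM in LP and between 3.70 and 6.65 CPM in SP.

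The 2 called genes of the DMH were sparse. Grm7, a presynaptic receptor of low glutamate affinity, was called over the 9 groups (edgeR adjusted p = 0.0267) on 376 counts in 25 libraries. The highest libraries were at 43.1 and 31 CPM in replicates 4 and 6 of 12 weeks and 26.8 CPM in replicate 3 of 4 weeks, whereas the medians of all groups lay between 0 and 1.63 CPM. The LP mean was 3.44 ± 5.70 CPM and the group means ran from 0.143 CPM at 20 weeks to 12.5 ± 19.4 CPM at 12 weeks. Without replicate 3 of every group the adjusted p was 0.727. Grin2c (adjusted p = 0.0489) had 85 counts in 5 libraries, namely 24.4 CPM in 1 library of 12 weeks, 2.04 in 1 of 16 weeks, 2.43 in 1 of 24 weeks and 6.46 and 5.54 CPM in 2 of 28 weeks, and was listed at 0 in LP and early SP. The 85 counts of Grin2c were summed over 13 isoform rows, of which the most counted held 7, so a read may be counted more than once. Neither gene was called by DESeq2 or without the libraries under 5000 symbols.

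Among the GABA receptor genes of the DMH, Gabra4 was at 0 in all 6 libraries of 8 weeks, from a LP median of 1.02 CPM (highest 76.5). With weeks pooled its log2 fold change in early SP was -1.56 (adjusted p = 0.848). Gabbr1 was at 35.4 ± 40.7 CPM in LP and 13.3, 19.5 and 25.8 CPM in SP, with a log2 fold change of -0.59 (95% interval -1.99 to 0.81) in mid SP. Gabrb2, the most counted beta subunit, was at 14.9 CPM in LP and 5.74, 8.75 and 18.4 CPM in SP. Of 6 LP libraries 1 held Gabrq, and of 18 late SP libraries 4 did, with a log2 fold change of 2.66 (0.61 to 4.71, adjusted p = 0.402). Gabrd was at 1.65 CPM in LP and between 0.214 and 2.42 CPM in SP.

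The receptor sum of the DMH moved with the neuron marker sum of the library. The 8 neuron markers (Snap25, Rbfox3, Tubb3, Syt1, Syn1, Stmn2, Nefl, Nefm), all measured, summed to a mean of 726 CPM in LP (96.3 to 2007), 303 in early SP (14.6 to 1134), 313 in mid SP (0 to 2129) and 487 in late SP (0 to 2555). Of these, Rbfox3 was read in only 29 of the 54 DMH libraries and Snap25 in 50. Tubb3 was not among the symbols analysed for the PVN, so every PVN neuron sum given here lacks it. Over the 54 libraries the receptor sum and the neuron sum had a Pearson r of 0.976 and a Spearman rho of 0.933 in the DMH, 0.844 and 0.862 in the MBH and 0.624 and 0.528 in the PVN. Both sums share the library total of each library, so these are given as a description. Without the 2 libraries farthest from the median neuron sum r was 0.966, 0.820 and 0.500, within the 9 groups it was 0.97, 0.859 and 0.657, and in the libraries with at least 5000 symbols it was 0.971, 0.839 and 0.619. Spearman's rho of the receptor sum with the number of symbols read was 0.865 in the DMH, 0.264 in the MBH and 0.253 in the PVN. The DMH libraries with a neuron sum of 0 read only 786 and 1072 symbols. Neuron number and the diversity of a library were not separated here, and which of them the DMH receptor sum followed was not tested.

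**Figure D4:**
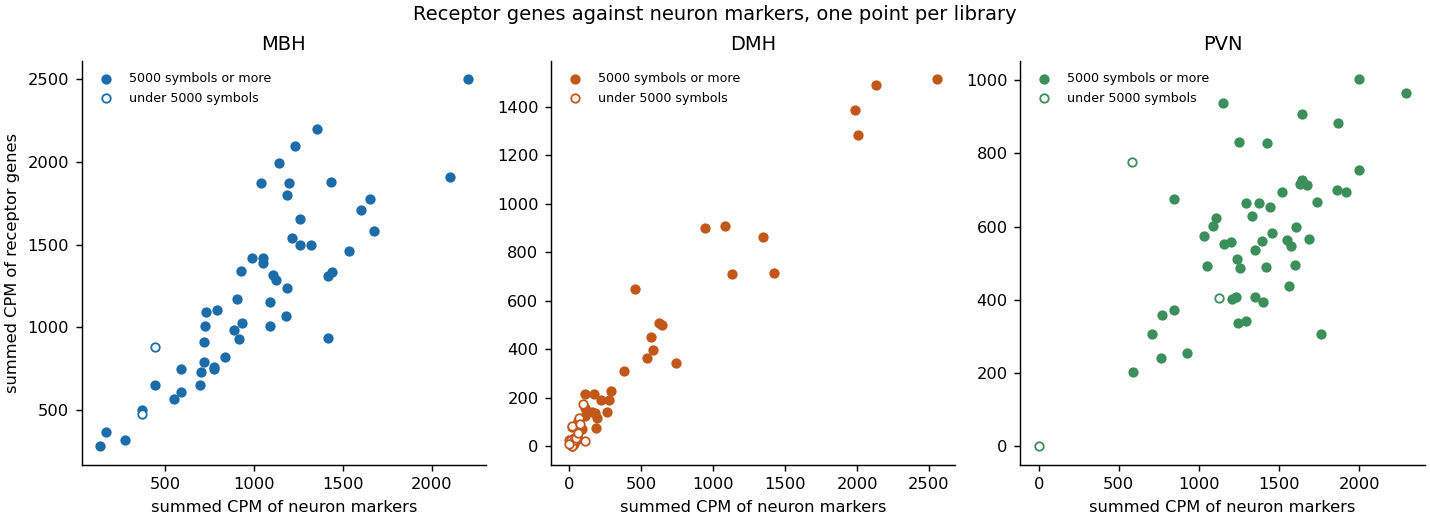
Summed level of the receptor genes (CPM, y axis) against the summed level of the neuron markers (CPM, x axis) in each library of the MBH, DMH and PVN. In the DMH the points lie along a line through all groups (r = 0.976), in the PVN they scatter more widely (r = 0.624). The PVN neuron sum lacks Tubb3.

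Set against neuron markers, the receptor sum of the DMH lay closer to LP in SP than on the CPM scale. Per 1000 CPM of neuron markers the receptor sum was 1150 ± 676 CPM in LP (n = 6), 1034 ± 1410 in early SP (n = 12), 1492 ± 1873 in mid SP (n = 17) and 1027 ± 551 in late SP (n = 17), leaving out 2 libraries with no neuron count. The medians were 1026, 656, 840 and 892 CPM. In the MBH it was 1222 ± 155 CPM in LP and 1357 ± 364, 1198 ± 272 and 1247 ± 375 in SP, and in the PVN 366 ± 56.9 in LP (n = 5) and 444 ± 196, 482 ± 233 and 418 ± 93.1 in SP. This scale was chosen after the values were seen. On it DMH Gria2 had a mean of 487 CPM in LP and 267, 639 and 328 CPM in early, mid and late SP. Its medians in the same order were 294, 78.7, 130 and 107 CPM. The highest mid SP value, 6000 CPM, came from replicate 2 of 20 weeks, whose neuron sum was 1.73 CPM. Gria3 in the DMH had means of 22.2 in LP and 26.9, 3.24 and 6.92 in SP. By the exact permutation test it differed from LP in mid SP only (p = 0.697, 0.0180 and 0.131). In early SP its median was 0, against 17.2 in LP, and its highest library was at 280. Gabbr1 in the MBH was at 88.8 CPM in LP and 70.0, 61.5 and 83.6 CPM in SP (exact permutation p = 0.391, 0.0787 and 0.736), so that its early SP difference no longer passed. Grm8 in the MBH was at 9.26 CPM in LP and 1.98, 1.84 and 2.31 in SP (exact permutation p = 0.0404, 0.0161 and 0.0301).

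In the PVN 0 of 34 receptor genes were called over the 9 groups (0.0158% of symbols), in early SP (0%), mid SP (0.0158%) or late SP (0.00527%) against LP, or in late against mid SP (0%). At an unadjusted p under 0.05 edgeR gave 2, 4, 4, 4 and 2 of the receptor genes in these comparisons, where 3.99% to 6.15% of symbols were. The 4 of early and of mid SP were all lower than LP. Gabra4 and its second record Gabra4-2, which may share reads, were both among the 4 in early, mid and late SP. These counts, and the 22 genes below, therefore hold that gene by both records. DESeq2 called 0 and had 0, 2, 3, 3 and 0 at an unadjusted p under 0.05. Of the 22 genes with at least 54 counts, 11 were higher and 11 lower in early SP, 8 and 14 in mid SP, and 10 and 12 in late SP. Their median log2 fold changes were -0.01, -0.18 and -0.08, with median half-widths of 1.14, 1.08 and 1.08, and from mid to late SP 15 of 22 were higher with a median of 0.14.

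Gabra4 forms receptors outside synapses together with Gabrd. Its LP values in the PVN were 0 in the library of 159 counts and 40.8, 40.1, 62.1, 47.1 and 37.2 CPM in replicates 2 to 6. The medians were 22.4 CPM in early SP (highest 41.6), 13.2 in mid SP (highest 65.1) and 19 in late SP (highest 83.1). The 5 read LP libraries thus lay above the median of each set of SP weeks, and single SP libraries lay among or above them. The log2 fold change was -1.20 (SE 0.48, 95% interval -2.15 to -0.25) in early SP, -1.36 (SE 0.46, -2.27 to -0.45) in mid SP and -0.97 (SE 0.45, -1.87 to -0.08) in late SP. The edgeR adjusted p-values were 1, 0.895 and 1, so none passed. Mean CPM differed in early and mid SP by the 2-sided exact permutation test (p = 0.0393 and 0.0254). Without the library of 159 counts, a choice made after the values were seen, the LP mean was 45.4 ± 9.97 CPM (n = 5), and the exact permutation p-values were 0.00129 in early, 0.00363 in mid and 0.0824 in late SP. The means of the SP weeks were 24.8, 14.5, 22.8, 9.67, 18.2, 26.6, 15.5 and 34.2 CPM from 4 to 32 weeks, with no steady course. The lowest, at 16 weeks, includes 3 libraries at 0 that held only 35278, 22219 and 5158 counts. Per 1000 CPM of neuron markers Gabra4 was at 33.1 ± 11.2 CPM in LP (n = 5), 15.7 ± 11.2 in early, 13 ± 11.6 in mid and 18.9 ± 17.5 in late SP (exact permutation p = 0.0145, 0.00577 and 0.136). The second record, Gabra4-2, gave nearly the same values, 0, 35.7, 47.1, 62.1, 53.8 and 46.5 CPM in LP and log2 fold changes of -1.39, -1.42 and -1.15 in early, mid and late SP. The records may share reads, so they are no independent measurements. Gabrd itself was at 7.48 CPM in LP and 4.33, 7.16 and 4.33 CPM in SP.

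Grm2, a presynaptic receptor, was at 0, 5.10, 7.01, 49.6, 13.5 and 0 CPM in the 6 LP libraries of the PVN and read in 8 of 12, 6 of 18 and 8 of 18 libraries of early, mid and late SP. In mid SP 1 library of 12 weeks was at 43.4 CPM, and the others were at or under 10.8 CPM. The log2 fold change was -2.16 (SE 0.70, 95% interval -3.55 to -0.77, edgeR adjusted p = 0.895) in mid SP and -1.78 (SE 0.68, -3.14 to -0.42, adjusted p = 0.978) in late SP. Without replicate 4 of every group, which removes the highest LP library, the late SP value was -0.99. Grm3, a close relative also found in astrocytes, was at 7.77 CPM in LP and 10.3, 7.25 and 5.15 CPM in SP, with a log2 fold change of -0.69 (-1.61 to 0.22) from mid to late SP. Grm7 lay the other way between these sets, at 4.78 and 8.03 CPM with a log2 fold change of 0.72 (-0.16 to 1.60), and both had an adjusted p of 1.

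Other PVN receptor genes overlapped widely between LP and SP. Gria2 was at 85.1 ± 64.5 CPM in LP and 103, 113 and 85.4 CPM in early, mid and late SP. Its direction depended on the measure, since the LP mean was 102 CPM without the library of 159 counts, above late SP, and the edgeR log2 fold changes were -0.09, -0.24 and -0.31. Grin1 was at 42 ± 37.3 CPM in LP and 62.2, 61.5 and 76.6 CPM in SP. Grik1, the most counted kainate gene there, was read in 2 of 6 LP libraries, at a mean of 8.73 CPM, and was at 27.2, 24.1 and 25.8 CPM in SP. Gabbr1 was at 25.6 ± 22.8 CPM in LP and 42, 55.6 and 42.8 CPM in SP (exact permutation p = 0.0505 in mid SP, and 0.146 without the LP library of 159 counts), with the opposite sign to its MBH means. Whether the tissues differed was not tested. Gabra2, the alpha subunit with the most counts, was at 38.4 CPM in LP and 62.3, 49.6 and 49.1 CPM in SP, and Gabrg1 at 29.2 CPM in LP and 45.4, 49 and 39.1 CPM in SP. These LP means include the library at 0. Without it they were 50.3 CPM for Grin1, 10.5 for Grik1, 30.7 for Gabbr1, 46.1 for Gabra2 and 35 for Gabrg1, each under the 3 SP means. Gabrb1 (5.60 CPM in LP), Gabrq (0.334 CPM) and Gabre (2.41 CPM) were low, and their SP means lay between 4.53 and 9.90, 2.25 and 3.79, and 0.370 and 1.92 CPM.

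**Figure D5:**
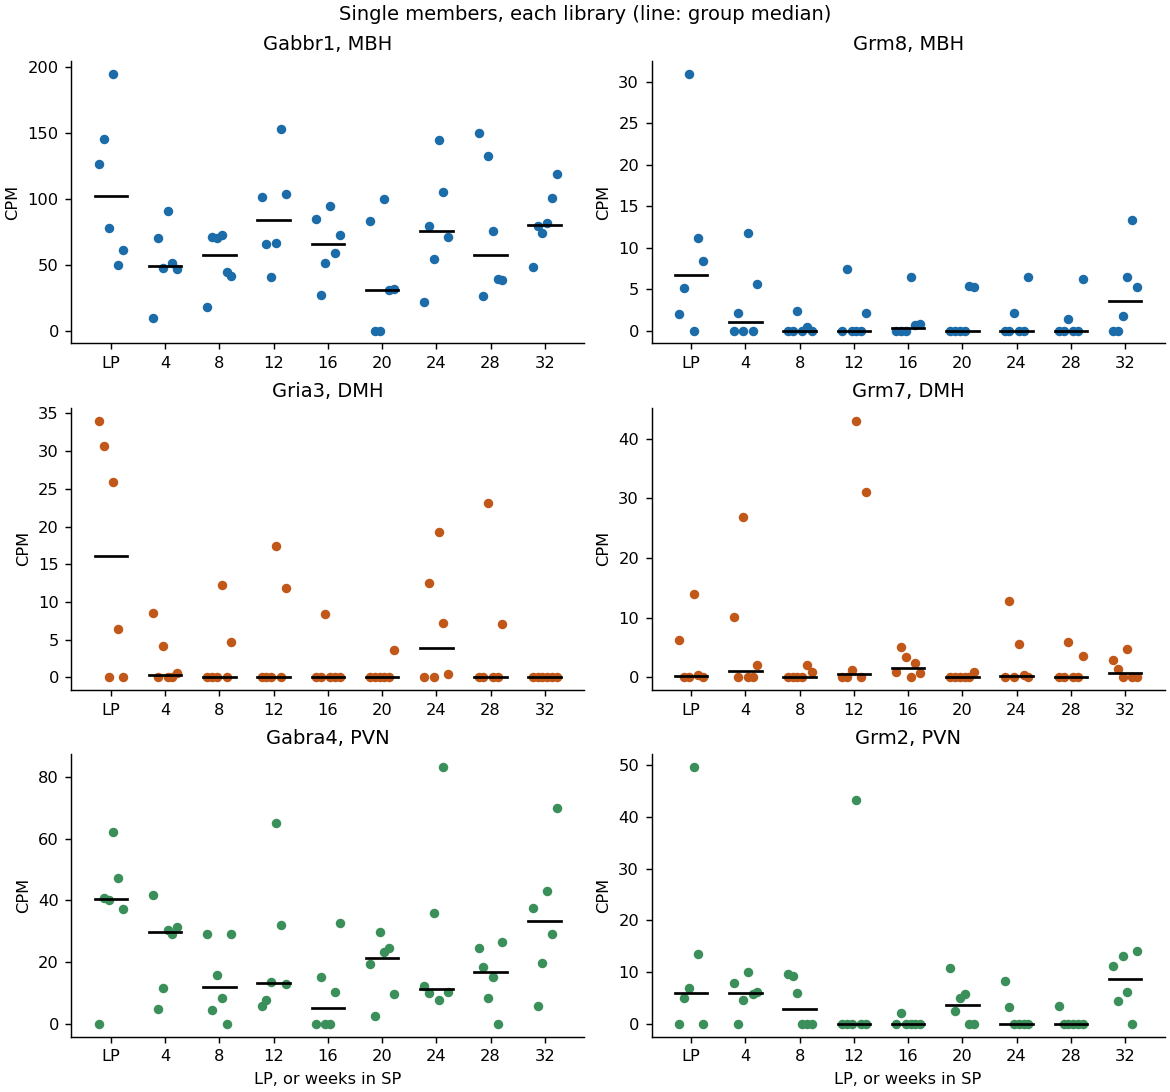
Level (CPM, y axis) of Gabbr1 and Grm8 in the MBH, Gria3 and Grm7 in the DMH, and Gabra4 and Grm2 in the PVN, in each library of LP and of each SP week (x axis). Points are hamsters and lines are group medians. The Gabra4 median is 40.4 CPM in LP and between 5.16 CPM at 16 weeks, where 3 shallow libraries are at 0, and 33.3 CPM at 32 weeks in SP, and SP medians of Grm8, Gria3 and Grm2 lie at or under 8.71 CPM.

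The tests on single levels were many. Over the 3 tissues 202 exact or resampled permutation tests of mean CPM were made on the genes named here, and 15 had p under 0.05, 7 of 68 in the MBH, 4 of 70 in the DMH and 4 of 64 in the PVN. The adjusted p-values of the fit over all symbols are the values that account for the number of genes.

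Genes that make, move and anchor the transmitters and receptors were tested beside the receptor genes. The lists held genes of GABA synthesis, loading, uptake and breakdown (8 tested in each tissue), of glutamate loading, uptake and metabolism (10 in each), scaffold and auxiliary proteins of inhibitory synapses (11 in the MBH and DMH, 8 in the PVN) and of excitatory synapses (26, 26 and 23), receptor genes of the same families outside the stems (4, 5 and 3) and chloride transporters (2 in each). In the MBH and PVN 0 of 61 and 0 of 54 were called by edgeR in any comparison, with 0 to 5 and 0 to 4 at an unadjusted p under 0.05. In the DMH, of 62, 4 were called over the 9 groups (6.45%, against 4.38% of all symbols), 2 in early SP (3.23% against 0.532%), 1 in mid SP (1.61% against 0.862%), and 0 in late SP (0.275% of symbols) and between late and mid SP (0%), where 6 and 4 had an unadjusted p under 0.05. DESeq2 called 0 of these genes in every comparison. Those over the 9 groups were Slc17a7, the vesicular glutamate transporter of many excitatory neurons (adjusted p = 0.0321, 26 counts in all), Homer1 and Homer3, scaffolds that bind metabotropic glutamate receptors (adjusted p = 0.0428 and 0.0707), and Shisa6, an AMPA receptor auxiliary protein (adjusted p = 0.0453, 35 counts). In early SP Slc17a7 (adjusted p = 0.0392) and Cacng7, another AMPA receptor auxiliary protein (adjusted p = 0.0981), were lower than in LP, and in mid SP Slc6a13, a GABA transporter with 9 counts in all, was lower (adjusted p = 0.0571). The median log2 fold change of the excitatory scaffold list in the DMH was -0.84 in early, -0.82 in mid and -0.78 in late SP (receptor genes -0.83, -0.62 and -0.46 at 54 counts or more and no group at 0), and that of the inhibitory scaffold list was -0.35, -0.06 and -0.37. In the MBH Gad1, which makes GABA, was higher in early, mid and late SP than in LP by log2 fold changes of 0.88 (SE 0.34), 0.74 (SE 0.32) and 0.81 (SE 0.32) but did not pass (adjusted p = 0.744, 0.696 and 0.713). Slc17a8, a vesicular glutamate transporter with 26 counts, had the smallest adjusted p of these MBH genes, 0.176 in early SP.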

How the data were processed

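Per the labels and the study's methods, RNA of hypothalamic punches was sequenced as PCR-amplified cDNA on a nanopore device. The deposited values are expected counts, that is estimated counts per isoform, which the authors made with Salmon after alignment with minimap2 to the mouse genome, without normalization, after removal of transcripts with low counts. Amplified reads without molecular identifiers are not independent molecules. Isoforms of a gene often hold equal values, so their sums are not read numbers. Here isoform rows were summed per symbol, rounded, and Gm32262 was left out. CPM is per 1000000 of the remaining counts. Lists and members were chosen with earlier results of these data known.

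All 54 libraries of a tissue were fitted together with edgeR 4.0.16 (quasi-likelihood test in its older form, TMM, no filter on low counts) in R 4.3.3, with Benjamini-Hochberg adjustment over all symbols and FDR below 0.1. Sets of SP weeks were compared as the mean of the weeks' coefficients. DESeq2 1.42.0 was an alternative. Leaving out libraries under 5000 symbols and pooling the weeks of a set were alternatives chosen after seeing the data. Mean CPM of named genes was compared by 2-sided permutation tests (SciPy 1.17.1), exact unless both sets held 10 or more libraries (100000 resamples). Named were genes with FDR below 0.1, the 2 with the smallest unadjusted p per comparison among those with at least 54 counts, the gene with the most counts of each class, and Gria2, Grin1, Gabrd, Gabrq, Gabre and Gabbr1. Some genes that this rule names are not reported here. Gabrg1 of the MBH, Grin1os and Grm6 were chosen after their values were seen. The fit was tested on simulated data. No pair of libraries was a duplicate by a chi-square comparison of counts. No reference sequence was used, so gene lengths, coordinates and sequences were not analysed here. Pituitary libraries were not used here.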

Additional observations from a re-analysis of the deposited data

Results flagged for a closer look

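In a group of 6 libraries a single library was looked at again where its gap to the nearest other was wide for the group's range by Dixon's 95% limit, which chance passes in about 1 of 20 groups. Of 107 groups 11 passed. In the DMH the summed receptor level was 501 CPM in replicate 3 of 16 weeks (the others 35.3 to 191), 1387 CPM in replicate 3 of 28 weeks (25.6 to 511) and 863 CPM in replicate 4 of 32 weeks (11.4 to 77.0). Gria2 in the DMH stood apart in the same libraries of 28 and 32 weeks, at 228 CPM (the others 0 to 67.0) and 103 CPM (0 to 2.83). Gria3 in the DMH was at 8.33 CPM in replicate 3 of 16 weeks (the others at 0), 3.64 CPM in replicate 6 of 20 weeks (the others at 0) and 23.2 CPM in replicate 3 of 28 weeks (0 to 7.05). Grm7 in the DMH was at 0.857 CPM in that same 20-week library and at 0 in the others of its week. In the MBH Gabra4 was at 60.1 CPM in replicate 1 of 28 weeks (2.18 to 23.7). In the PVN Gria2 was at 300.0 CPM in replicate 1 of 8 weeks (15.8 to 111).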

How the results depend on the processing

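The count of called receptor genes was within 1.5 times its reported value in 217 of 242 alternatives over the 15 comparisons. The calls over the 9 groups were the ones lost. The 1 of the MBH became 0, and the 2 of the DMH became 0, with edgeR's filter on low counts, with edgeR's present quasi-likelihood form, with the isoform of most counts alone, without the libraries under 5000 symbols and with DESeq2. The MBH count was also 0 at an FDR below 0.05. With 1 replicate number left out it was 0 to 0 in the MBH and 0 to 2 in the DMH, where replicates 3 and 4 gave 0 and replicate 6 gave 1. The DMH count for early SP rose from 0 to 1 with the isoform of most counts (Gria3), and that for mid SP to 1 in the same way and to 2 without replicate 3 (Gria3 and Grm8, range 0 to 2). Adjusted p of the called genes ranged from 0.0691 to 1 for Grin2c in the MBH, 0.0466 to 1 for Grin2c and 0.0139 to 1 for Grm7 in the DMH. Log2 fold changes were followed for 38 pairs of a gene and a comparison, most picked for a small unadjusted p and the others by choice. None turned sign in 604 alternatives, of which 601 kept their side of the threshold. That choice favours a stable sign, and the stricter FDR, counted among the alternatives, cannot change a fold. None of the 38 was called in the reported fit, so keeping its side mostly meant staying uncalled. DESeq2 moved the median of all symbols to 0.08, 0.14 and 0.08 in the DMH and to -0.37, -0.35 and -0.44 in the PVN (early, mid and late SP against LP). With the replicate number as a block both counts over the 9 groups were 0. The pairing check passed a correlation of 0.1 in only 72, 109 and 52 of 216 same-numbered pairs in the MBH, DMH and PVN. The median correlation was 0.059, 0.101 and 0.054. For this the number was not taken to pair libraries, and the fit reported here leaves it out. Yet 28, 19 and 30 of 54 libraries correlated best with their own number, more than an even share over the 6 numbers. In the MBH replicate 4 held 9.27% to 19.9% Gm32262 in every group, where group medians were 22.7% to 48.9%. What the number stands for was not tested. The cause of these shifts in calls and medians was not tested either. Keeping Gm32262 could not be run for the PVN. Depth limits all of it.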

Other observations

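The summed receptor level of the 54 hamsters was compared between their own tissues, in 3 relations with 100000 resamples each. MBH and DMH sums had a Pearson r of 0.422 (permutation p = 0.00138, adjusted 0.00414) but a Spearman rho of 0.232 (permutation p = 0.0909, adjusted 0.273). Without the 2 hamsters farthest from the median r was 0.318. In each relation hamsters were permuted over all 54, without regard to the photoperiod group or replicate number that their tissues share. The p-values therefore do not set the hamster apart from its group or number. MBH and PVN sums had r = -0.033 (permutation p = 0.810) and rho = -0.016 (p = 0.909, permutation), and DMH and PVN sums r = -0.074 (permutation p = 0.596) and rho = -0.036 (p = 0.798, permutation).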
